A study of Mus musculus with 28 samples.

Results

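The Hox genes are a family of homeobox transcription factors arranged in 4 clusters, HoxA, HoxB, HoxC and HoxD. Members were taken by name, from cluster and paralogue number and not by a measured value, but with earlier results of these data known. Of the 55536 gene identifiers in the count files 38 belong to them: 10 in HoxA, 10 in HoxB, 9 in HoxC and 9 in HoxD. Within a cluster the genes lie in the order of their paralogue numbers, and genes of the same number in different clusters descend from 1 ancestral gene. During development the low-numbered genes are used from the head end backwards and the high-numbered genes only towards the tail, a rule called collinearity, and skin cells of the adult keep a positional Hox pattern. Paralogues 1 to 3 are called anterior here (7 members), 4 to 8 central (15 members) and 9 to 13 posterior (16 members).

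RNA was sequenced from the interfollicular epidermis (IFE), the skin surface between hair follicles, of back and tail in 28 libraries. All mice carried a tamoxifen-inducible Cre recombinase (CreER), named for Slc1a3, Aspm, K14 or Dlx1, crossed to a tdTomato reporter in Rosa, and the labels call each genotype WT. Tamoxifen was given to all of them for 5 consecutive days (postnatal days 30 to 34), and all tissue dates from 2 weeks after that (postnatal day 49), when the hair cycle rests (telogen). Cells positive for the line's name (Slc1a3+, Aspm+, K14+ or Dlx1+, called labelled cells) stand beside total IFE of the same line. Back skin has 3 Slc1a3+, 3 Slc1a3 total, 3 Aspm+, 3 Aspm total, 2 K14+ and 2 K14 total libraries (16), and tail skin has 2 each of Slc1a3+, Slc1a3 total, Aspm+, Aspm total, Dlx1+ and Dlx1 total (12). K14 was sampled in back only and Dlx1 in tail only, so both sites can be compared in the Slc1a3 and Aspm lines. No label states that libraries came from separate animals, and p-values therefore measure the spread between these libraries, which may be technical. A labelled cell is defined by its history of Cre activity, so it need not express the gene of the line's name at harvest.

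The 28 libraries held between 7738262 and 37670589 counts each (median 20193387). Levels are in CPM, counts relative to the library's scaled size, and per kb of merged exon where genes are compared with each other. The library of back Slc1a3 total replicate 4 stood apart, with the lowest total, 14436 genes with a count (18375 or more in the others) and 0.208% of counts from mitochondrial genes (0.974 to 2.32% in the others). Among the back libraries it was the lowest for Hoxa2, Hoxa4, Hoxa5, Hoxb8, Hoxc4, Hoxc5 and Hoxc6 and the highest for Hoxa3, Hoxa9, Hoxb1, Hoxb3, Hoxb4, Hoxb5, Hoxb6, Hoxc8 and Hoxc13. Where it moved a printed Hox level or share by over 1.5 times, the value without it is also given. The 10 keratinocyte markers, Krt5 and Krt14 among them, were detected at both sites and summed to 65498 to 101989 CPM in back and 73039 to 127851 CPM in tail.

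Back and tail IFE carried different Hox genes. In the 16 back libraries the central paralogues held 91.1% of the summed Hox level per kb (median, range 87.2 to 93.3) and the posterior paralogues 2.07% (0.884 to 4.91). In the 12 tail libraries the central share was 29.6% (26.2 to 32.8) and the posterior share 69.2% (65.7 to 72.9). The summed level of the family was 106 CPM per kb in back (86.3 to 132) and 192 in tail (173 to 216), so neither site was without Hox transcripts and the ranges did not overlap. In bulk RNA, fewer cells that carry a transcript and less of it per cell cannot be told apart. Without back Slc1a3 total replicate 4 the back posterior share was 2.00% (0.884 to 3.10).

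The clusters differed in how they were used. HoxD made up 0.139% of the Hox level per kb in back (0 to 0.933) and 44.0% in tail (40.5 to 48.8). HoxA took 53.7% in back (41.0 to 61.0) and 20.7% in tail (18.8 to 23.2), and HoxB 26.0% in back (20.9 to 42.3) and 10.6% in tail (9.62 to 13.1). HoxC held a similar share at both sites, 19.6% (14 to 27.1) and 23.5% (19.5 to 29.3), but mainly through different genes, Hoxc4 to Hoxc8 in back and Hoxc11 to Hoxc13 in tail. Per kb, the 5 highest genes of back were Hoxa7 (26.3 CPM per kb), Hoxa5 (19.0), Hoxb7 (7.86), Hoxc8 (7.31) and Hoxb4 (6.99). In tail they were Hoxd9 (36.8), Hoxc13 (31.1), Hoxd8 (23.0), Hoxa7 (12.9) and Hoxa9 (12.6). In back the libraries' ranges overlapped between Hoxa7 and Hoxa5 and among Hoxb7, Hoxc8 and Hoxb4, and only Hoxa5 and Hoxb7 were separated as neighbours. In tail they overlapped between Hoxd9 and Hoxc13, between Hoxc13 and Hoxd8 and between Hoxa7 and Hoxa9, and only Hoxd8 and Hoxa7 were separated.

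**Figure D1:**
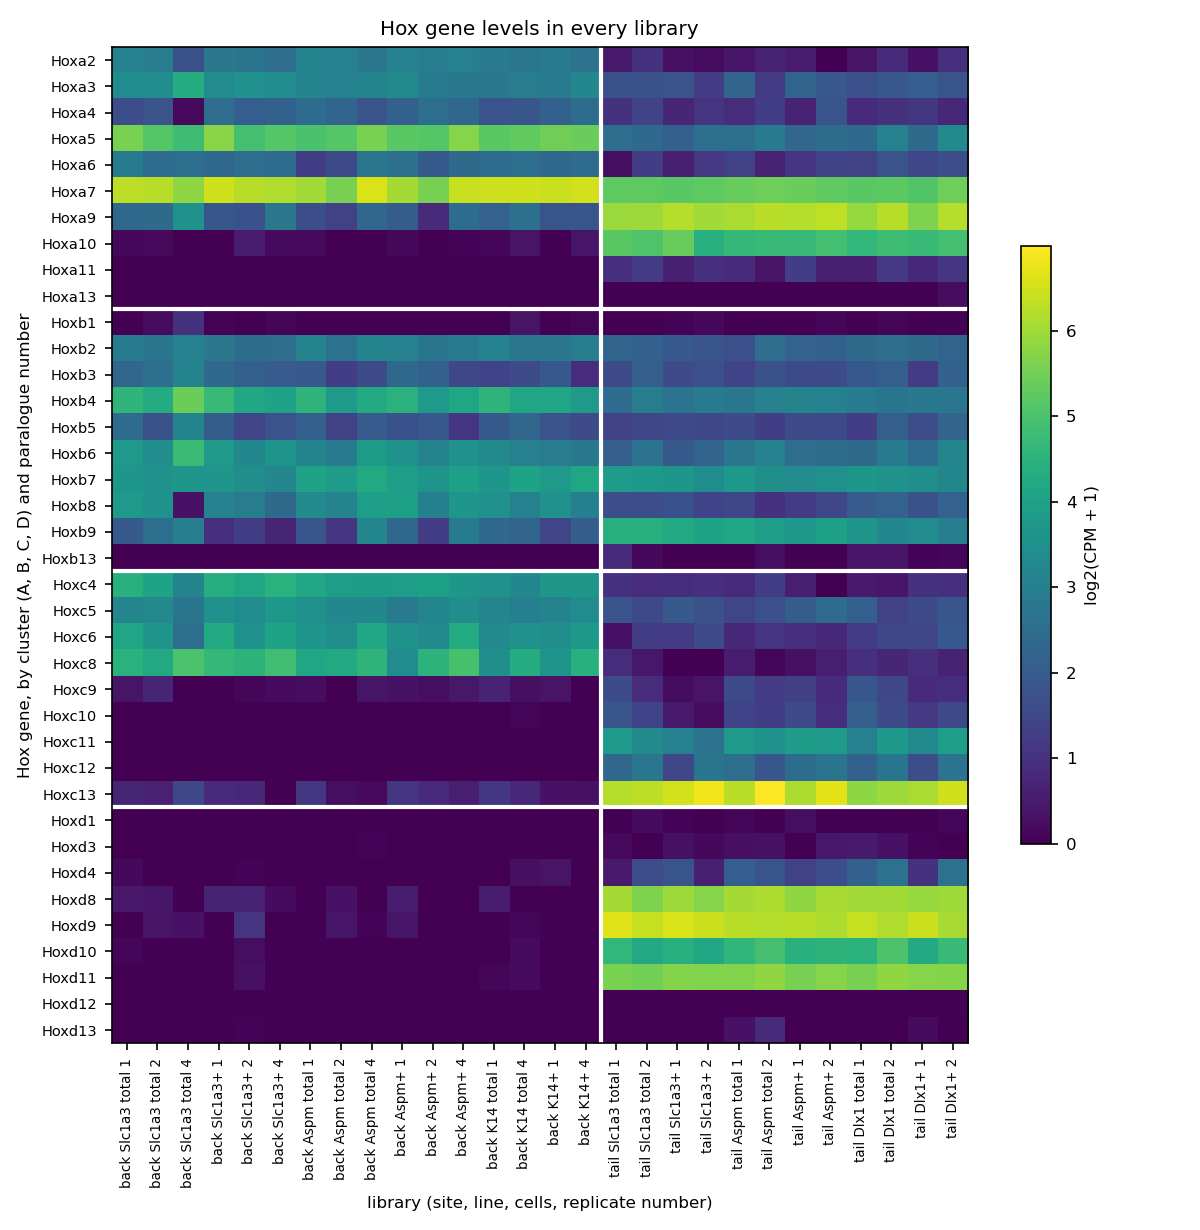
Level of each of the 38 Hox genes (rows, by cluster and paralogue number) in each of the 28 libraries (columns, back left of the white line and tail right), as log2(CPM + 1) on the colour scale. Hoxa7, Hoxa5, Hoxc8 and Hoxb4 are among the brightest rows in back. Hoxa7, Hoxa9, Hoxa10, Hoxc13 and Hoxd8 to Hoxd11 are among the brightest in tail. Hoxc11 and Hoxc12 are dimmer in tail and have no count in back.

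Over the whole family, 12 members had all 12 tail libraries above all 16 back libraries, and 9 had all of them below. Among the 17493 genes tested, 5.93% lay wholly above and 5.77% wholly below. All 12 and all 9 were among the 31 members tested. Hoxa10, Hoxa11, Hoxc10, Hoxc11, Hoxc12, Hoxd4, Hoxd9, Hoxd10 and Hoxd11 passed the filter on low counts only through tail libraries. Only the upper side was therefore open to them. The 12 were 10 posterior and 2 central genes, 5 of them in HoxD, 4 in HoxC and 3 in HoxA, and the 9 were 2 anterior and 7 central genes, 4 in HoxA, 4 in HoxC and 1 in HoxB. Without back Slc1a3 total replicate 4 the numbers were 12 and 10, the addition being Hoxb8. Hoxa11, Hoxa13, Hoxb13, Hoxc11, Hoxc12, Hoxd1 and Hoxd12 had no count in any back library, and every member had at least 1 count somewhere in tail.

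In edgeR's quasi-likelihood test with Benjamini-Hochberg adjustment over all 17493 genes, 31 members could be tested. In total IFE, averaged over the Slc1a3 and Aspm lines (6 back and 4 tail libraries), 14 were higher in tail, 14 were lower and 3 did not pass. Of all genes, 22.5% were higher and 23.7% lower. In Slc1a3+ cells (3 back and 2 tail libraries) 13 members were higher and 13 lower, against 19.0% and 21.6% of all genes. In Aspm+ cells (3 back and 2 tail) 13 were higher and 12 lower, against 12.7% and 14.5% of all genes. The members' median log2 change was -0.55, -0.38 and -0.44 in the order total, Slc1a3+ and Aspm+, beside -0.03, -0.09 and -0.05 over all genes. Leaving out tail Aspm+ replicate 1 reduced the 12 lower members of Aspm+ cells to 5, the lost calls being Hoxa3, Hoxa7, Hoxb2, Hoxb4, Hoxb6, Hoxb8 and Hoxc5, and leaving out replicate 2 reduced them to 6. The tail Aspm+ group then holds 1 library, which is assumed to vary like the other groups. Leaving out tail Slc1a3+ replicate 1 lost Hoxa4, Hoxa6, Hoxb2, Hoxc10 and Hoxd4 in Slc1a3+ cells.

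Direction went with paralogue number. All 12 posterior members tested were higher in tail in total IFE, with a median log2 change of 8.40, and 0 were lower. Hoxa10, Hoxa11, Hoxc10, Hoxc11, Hoxc12, Hoxd9, Hoxd10 and Hoxd11 had at most 24 counts in any back library. They, like Hoxd4 among the central members, passed the filter on low counts only through tail libraries, so a lower call was not open to them. The 8.40 depends in part on the fit's prior count, as some of these genes had no count in the compared back groups. Of the 15 central members 11 were lower and 2, Hoxd4 and Hoxd8, were higher, with a median of -1.89, while 3 of the 4 anterior members tested were lower, with a median of -1.45. In Slc1a3+ cells 11 posterior members were higher, and in central members 2 were higher and 10 lower. In Aspm+ cells the corresponding numbers were 11, 2 and 9. The 13 members that were higher in all 3 comparisons were Hoxa9, Hoxa10, Hoxa11, Hoxb9, Hoxc10, Hoxc11, Hoxc12, Hoxc13, Hoxd4, Hoxd8, Hoxd9, Hoxd10 and Hoxd11, and the 11 that were lower in all 3 were Hoxa2, Hoxa3, Hoxa5, Hoxa7, Hoxb2, Hoxb4, Hoxb6, Hoxc4, Hoxc5, Hoxc6 and Hoxc8.

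**Figure D2:**
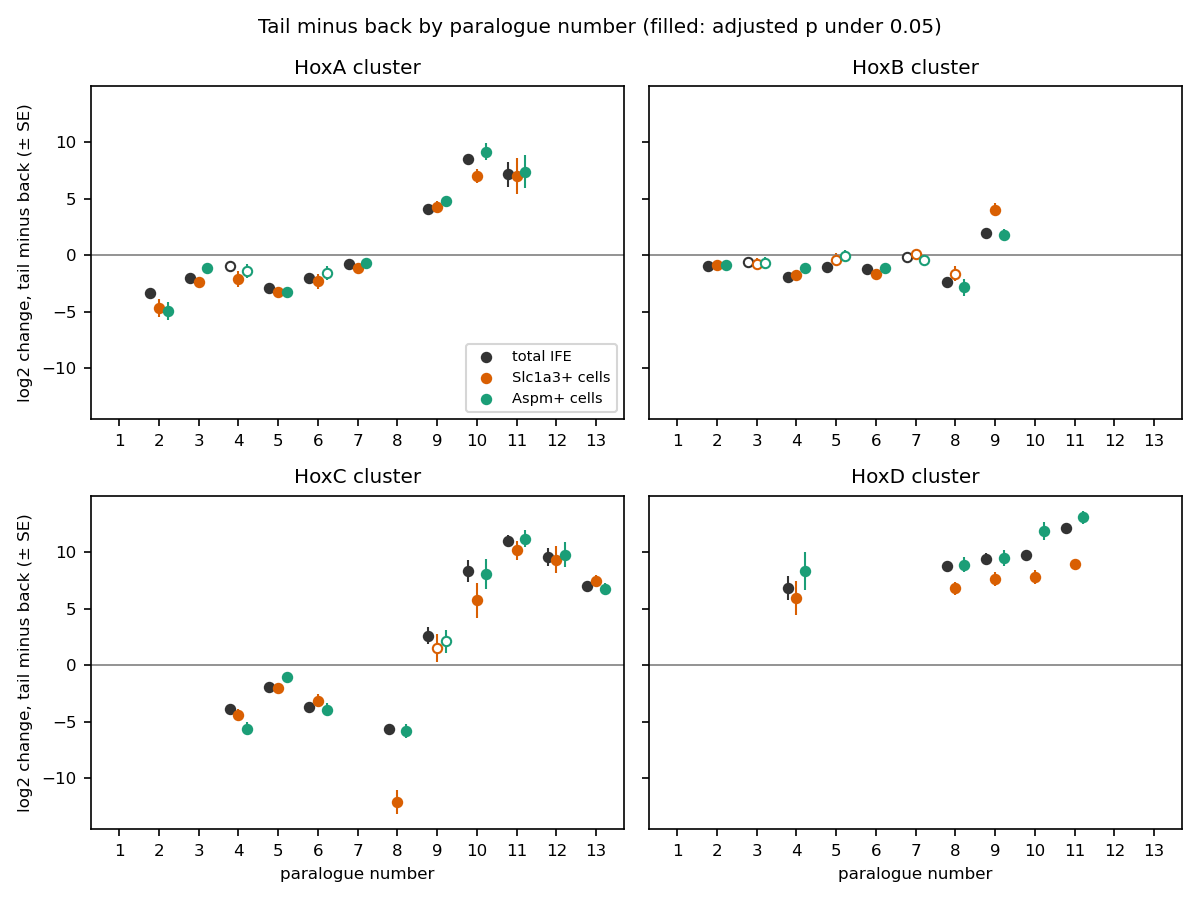
Log2 change from back to tail (points, with SE bars) against paralogue number, in 1 panel per cluster, for total IFE (dark), Slc1a3+ cells (orange) and Aspm+ cells (green), with filled points where the adjusted p was under 0.05. In HoxA the sign turns between paralogues 7 and 9, in HoxC between 8 and 9, in HoxB only Hoxb9 is above 0 and filled, and every tested HoxD gene is above 0. Points for genes with no count at one site (such as Hoxc8 in Slc1a3+ cells) depend on the fit's prior count.

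The promoters of genes on either side of this turn are shown as the sequence before annotated starts of members that differed by site. Their part in the site difference was not tested, nor which start was used. RefSeq's promoter table (build GRCm38.p6) held 22 of the 38 members in 24 entries, and the 250 bases before the start are given here, 5′ to 3′ on the gene's strand. Capitals mark matches on either strand to TTTATG, the core bound by the Cdx homeobox factors, or to TGATTNAT, a joint site of Hox and Pbx proteins, and the motifs do not overlap in these sequences. Hoxd8 (chr2:74704365-74704614, plus strand), Hoxd11 (chr2:74679308-74679557, plus) and Hoxa10 (chr6:52240855-52241104, minus) were higher in tail. Hoxb8 (chr11:96281655-96281904, plus), Hoxa2 (chr6:52164832-52165081, minus) and Hoxa5 (chr6:52204588-52204837, minus) were lower in tail in total IFE. Hoxd11 and Hoxa10 have 2 entries each, and the one farther upstream is shown.
Hoxd8: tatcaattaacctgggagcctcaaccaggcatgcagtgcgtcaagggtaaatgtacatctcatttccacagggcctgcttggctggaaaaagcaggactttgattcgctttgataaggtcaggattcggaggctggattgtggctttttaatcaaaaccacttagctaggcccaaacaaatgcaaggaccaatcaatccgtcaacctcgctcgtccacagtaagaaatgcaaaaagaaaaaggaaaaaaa
Hoxd11: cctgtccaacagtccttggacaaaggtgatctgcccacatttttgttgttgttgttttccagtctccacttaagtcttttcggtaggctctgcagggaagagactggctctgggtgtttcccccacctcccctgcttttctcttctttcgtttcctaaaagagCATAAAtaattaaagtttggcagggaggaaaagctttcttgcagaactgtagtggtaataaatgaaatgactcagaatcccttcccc
Hoxa10: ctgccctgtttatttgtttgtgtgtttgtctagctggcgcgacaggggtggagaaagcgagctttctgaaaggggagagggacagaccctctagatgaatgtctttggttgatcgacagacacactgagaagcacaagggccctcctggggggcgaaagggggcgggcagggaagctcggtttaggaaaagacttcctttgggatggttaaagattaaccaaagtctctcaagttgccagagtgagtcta
Hoxb8: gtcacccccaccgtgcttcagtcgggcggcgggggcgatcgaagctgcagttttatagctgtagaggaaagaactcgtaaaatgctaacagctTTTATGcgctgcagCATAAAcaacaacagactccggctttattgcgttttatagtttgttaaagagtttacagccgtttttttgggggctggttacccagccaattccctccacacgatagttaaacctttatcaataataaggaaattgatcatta
Hoxa2: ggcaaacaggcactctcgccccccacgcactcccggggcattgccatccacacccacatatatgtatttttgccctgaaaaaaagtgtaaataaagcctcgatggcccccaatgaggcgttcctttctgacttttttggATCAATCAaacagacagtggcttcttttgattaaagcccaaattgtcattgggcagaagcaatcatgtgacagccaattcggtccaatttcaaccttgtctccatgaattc
Hoxa5: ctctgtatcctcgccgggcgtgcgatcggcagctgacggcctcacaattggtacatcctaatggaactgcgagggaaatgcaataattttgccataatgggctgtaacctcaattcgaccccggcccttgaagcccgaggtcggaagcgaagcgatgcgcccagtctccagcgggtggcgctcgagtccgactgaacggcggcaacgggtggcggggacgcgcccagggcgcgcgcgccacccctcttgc

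TTTATG was found in 5 of the 24 Hox entries and in 10.8% of 32841 promoters of the same length. TGATTNAT was found in 2 of the 24 and in 2.83% of all. Among genes higher in tail in all 3 comparisons 2 of 10 entries held TTTATG and 1 held TGATTNAT, and among genes lower in all 3 it was 1 of 6 for each, so matches occurred on both sides. Hoxb8 held TTTATG in both orientations, and Hoxa2 held TGATTNAT in its reverse complement. The CpG content also varied, from 2 CpG in the Hoxd11 stretch, 6 in Hoxd8, 6 in Hoxa2 and 7 in Hoxa10 to 12 in Hoxb8 and 28 in Hoxa5, with a median of 6 over all promoters (quartiles 2 and 16). The downstream entries of Hoxd11 and Hoxa10, not shown, hold 20 CpG each, and that of Hoxd11 holds TGATTNAT but not TTTATG. A match is a description of the letters, not a shown binding site.

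Of the 7 anterior members Hoxa2 and Hoxa3 lay lower in tail without overlap, and the ranges of the other 5 overlapped. Hoxa2 (chromosome 6, 52162417 to 52164831), a selector gene of the second pharyngeal arch, was at 2.30 to 7.69 CPM in back (median 6.41; lowest 4.70 without back Slc1a3 total replicate 4) and 0 to 1.02 CPM in tail (median 0.376). No tail library reached the lowest back library. Its log2 change was -3.37 ± 0.486 (SE) in total IFE (edgeR adjusted p = 4.96e-06), -4.66 ± 0.795 in Slc1a3+ cells (5.98e-05) and -4.91 ± 0.779 in Aspm+ cells (4.47e-05). Hoxa3, needed for thymus and parathyroid formation, was at 6.02 to 18.9 CPM in back (median 8.21; highest 10.6 without back Slc1a3 total replicate 4) and 1.34 to 3.90 CPM in tail (median 2.48), again without overlap. It was lower in tail by log2 changes of -1.98, -2.37 and -1.14 in the same order, and its call in Aspm+ cells was lost in 5 of 14 alternatives. Hoxb2, a hindbrain gene, was closer between sites, at 4.52 to 7.76 CPM in back and 2.29 to 4.65 CPM in tail, with overlap. Its log2 changes were -0.92, -0.90 and -0.87, with adjusted p = 0.00215, 0.0339 and 0.0490, and its calls in Slc1a3+ and Aspm+ cells were lost in 8 of 14 and 11 of 14 alternatives. Hoxb3 did not pass in any of the 3 comparisons, with log2 changes of -0.55 ± 0.368, -0.74 ± 0.527 and -0.65 ± 0.524. Hoxb2, Hoxb3 and Hoxa3 share 27.3%, 52.9% and 27.1% of their exon bases with other annotated genes, and the kit did not mark strand, so part of their counts may belong to those genes.

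The remaining anterior members were near or at 0. Hoxb1, a hindbrain gene, had 19 counts over the back libraries (0 in 10 of 16, highest 1.02 CPM in back Slc1a3 total replicate 4 and 0.290 CPM without it) and 8 over the tail libraries. Hoxd1 had no count in back and 14 in tail, with at most 0.195 CPM. Hoxd3 had 1 count in back and 46 in tail (0 to 0.422 CPM), a ratio of 59.6 scaled for depth (exact 95% interval 10.2 to 2406, covering counting error only). It shares 62.8% of its exon bases with Hoxd4, Hoxd3os1 and other annotated genes, so part of these counts may belong to them. None of these 3 reached the filter on low counts, and no test was made.

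The central genes Hoxa7 and Hoxa5 had the highest median levels per kb of the Hox genes in back IFE. Hoxa7, studied in keratinocytes as a regulator of their differentiation, was at 45.6 to 96.0 CPM in back (median 75.7) and 33.4 to 42.8 CPM in tail (median 37.2). It was thus present in every library, and all tail libraries lay below all back libraries. Its change was small, with log2 -0.81 ± 0.169 in total IFE (adjusted p = 3.88e-04), -1.09 ± 0.243 in Slc1a3+ cells (9.38e-04) and -0.71 ± 0.239 in Aspm+ cells (0.0300), where the call was lost in 7 of 14 alternatives. Hoxa5, best known for its role in lung development and in the skeleton of the neck and upper chest, changed more. In back it was 47.1, 33.9 and 27.3 CPM in Slc1a3 total, 30.8, 34.6 and 46.5 in Aspm total, 52.4, 29.5 and 34.3 in Slc1a3+ and 35.8, 34.3 and 51.2 in Aspm+ libraries. In tail it was 4.68 and 4.21 CPM in Slc1a3 total, 4.75 and 6.23 in Aspm total, 3.38 and 4.81 in Slc1a3+ and 3.96 and 4.54 in Aspm+ libraries. The groups were far apart, the highest of all 12 tail libraries being 8.91 CPM in Dlx1+ replicate 2 and the lowest of the back libraries 27.3 CPM. Its log2 changes were -2.90 ± 0.246 (adjusted p = 1.35e-09), -3.24 ± 0.358 (1.86e-07) and -3.25 ± 0.356 (2.40e-07).

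Hoxa4 and Hoxa6 were lower, with median levels of 2.20 and 5.10 CPM per kb in back, beside 26.3 for Hoxa7. Hoxa4 ranged from 0.128 to 4.76 CPM in back (lowest 2.16 without back Slc1a3 total replicate 4) and from 0.635 to 2.55 CPM in tail. It passed in Slc1a3+ cells alone, with log2 -2.10 ± 0.690 (adjusted p = 0.0181), beside -0.96 ± 0.459 in total IFE and -1.38 ± 0.653 in Aspm+ cells. Hoxa6 ranged from 1.44 to 6.45 CPM in back and from 0.207 to 2.45 CPM in tail, with overlap. It was lower in total IFE (-2.03 ± 0.453, adjusted p = 7.65e-04) and in Slc1a3+ cells (-2.31 ± 0.658, 0.00719), and its value in Aspm+ cells was -1.57 ± 0.625 (0.0658). Whether these genes differed between cell populations in their site change was tested for Slc1a3+ against Aspm+ cells, and no member passed that interaction.

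Of the 5 central HoxB genes 4 were lower in tail in total IFE, and all 5 were detected in every tail library. Hoxb7, the fifth, a thoracic-region gene, was at 8.35 to 17.8 CPM in back (median 12.1) and 8.27 to 13.4 CPM in tail (median 10.5), and the ranges overlapped almost entirely. Its log2 changes were -0.15 ± 0.161, 0.11 ± 0.229 and -0.44 ± 0.230 (adjusted p = 0.466, 0.734 and 0.166). Hoxb4, known for its action in blood stem cells, was at 12.6 to 41.9 CPM in back (median 17.9; highest 25.2 without back Slc1a3 total replicate 4) and 4.41 to 7.67 CPM in tail (median 6.16), without overlap. It was lower in tail by -1.89 ± 0.242, -1.74 ± 0.342 and -1.15 ± 0.331. Hoxb6 was at 6.13 to 26.3 CPM in back (highest 13.1 without back Slc1a3 total replicate 4) and 2.91 to 8.09 CPM in tail, with overlap. Its log2 changes were -1.18, -1.67 and -1.09, with adjusted p = 0.00151, 0.00250 and 0.0450. In Aspm+ cells its call was lost in 7 of 14 alternatives.

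Hoxb5 and Hoxb8 were less even. Hoxb5, which acts in neural crest cells of the gut, ranged from 1.17 to 7.92 CPM in back (highest 4.49 without back Slc1a3 total replicate 4) and 1.41 to 3.86 CPM in tail, and passed in total IFE only (-1.05 ± 0.384, adjusted p = 0.0281). That call was lost in 11 of 18 alternatives, among them without back Slc1a3 total replicate 4 (the library with the 7.92 CPM), without back Aspm total replicate 1 and without any 1 of the 4 tail total libraries. Hoxb8, known from the grooming behaviour and blood lineage of its mutants, was at 4.30 to 14.8 CPM in 15 back libraries and 0.255 CPM in back Slc1a3 total replicate 4. In tail it was at 1.01 to 3.62 CPM, below all of those 15. It was lower in total IFE (-2.39 ± 0.499, adjusted p = 4.09e-04) and in Aspm+ cells (-2.84 ± 0.726, 0.00493), with -1.61 ± 0.691 in Slc1a3+ cells (0.0653).

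Central HoxC genes were mainly back transcripts. Hoxc8, a gene of the brachial and lower thoracic level, was at 20.9, 17.6 and 31.5 CPM in back Slc1a3 total, 16.6, 18.0 and 22.3 in Aspm total, 24.0, 21.8 and 28 in Slc1a3+, 9.57, 22 and 30.2 in Aspm+, 10.1 and 19.1 in K14 total and 11.3 and 20.5 in K14+ libraries. In tail it was at 0.895 and 0.354 CPM in Slc1a3 total, 0.467 and 0.0958 in Aspm total, 0.950 and 0.675 in Dlx1 total, 0.244 and 0.497 in Aspm+ and 0.926 and 0.578 in Dlx1+ libraries, and it had no count in either Slc1a3+ library. All tail libraries lay below all back libraries. The log2 change was -5.66 ± 0.433 in total IFE (adjusted p = 4.00e-10) and -5.81 ± 0.627 in Aspm+ cells (2.62e-07). In Slc1a3+ cells it was at least 139-fold lower in tail, taking 3 counts in each tail library as the limit (adjusted p = 1.18e-08).

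Hoxc4, Hoxc5 and Hoxc6 showed the same direction. Hoxc4 was at 7.66 to 21.2 CPM in back (median 13.8) and 0 to 1.39 CPM in tail (median 0.869), with log2 changes of -3.86 ± 0.343, -4.37 ± 0.503 and -5.62 ± 0.573. Hoxc6, expressed in thoracic tissue and the mammary region, was at 4.72 to 18.7 CPM in back (median 11.3; lowest 9.13 without back Slc1a3 total replicate 4) and 0.275 to 2.80 CPM in tail (median 1.34), with changes of -3.71 ± 0.395, -3.13 ± 0.535 and -3.93 ± 0.571. Hoxc5 kept more of its level, at 5.62 to 12.2 CPM in back (median 8.43) and 1.60 to 4.48 CPM in tail (median 2.47), with changes of -1.96 ± 0.252, -2.06 ± 0.357 and -1.09 ± 0.339. None of the 3 overlapped between sites, and all 9 of these changes passed the test. The call of Hoxc5 in Aspm+ cells was lost in 6 of 14 alternatives. Hoxc5 shares 166 exon bases with Hoxc10 in the annotation.

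The central HoxD genes Hoxd8 and Hoxd4 were higher in tail. Hoxd8 was at 48.7 to 68.6 CPM in tail (median 63.1) and 0 to 0.628 CPM in back, with no count in 8 of 16 back libraries. Its log2 change was 8.74 ± 0.470 in total IFE (adjusted p = 1.46e-12), 6.81 ± 0.574 in Slc1a3+ cells (5.81e-09) and 8.87 ± 0.655 in Aspm+ cells (1.02e-09). Hoxd4, a retinoic acid responsive gene of the neck region, was at 0.413 to 5.18 CPM in tail (median 2.33) and had 17 counts over the back libraries. With 3 back counts in total IFE its tail level was 95.7 times the back level (exact 95% interval 32.2 to 468). Hoxd4 shares 52.3% of its exon bases with Hoxd3, Hoxd3os1 and a predicted gene, so part of its counts may belong to them.

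**Figure D3:**
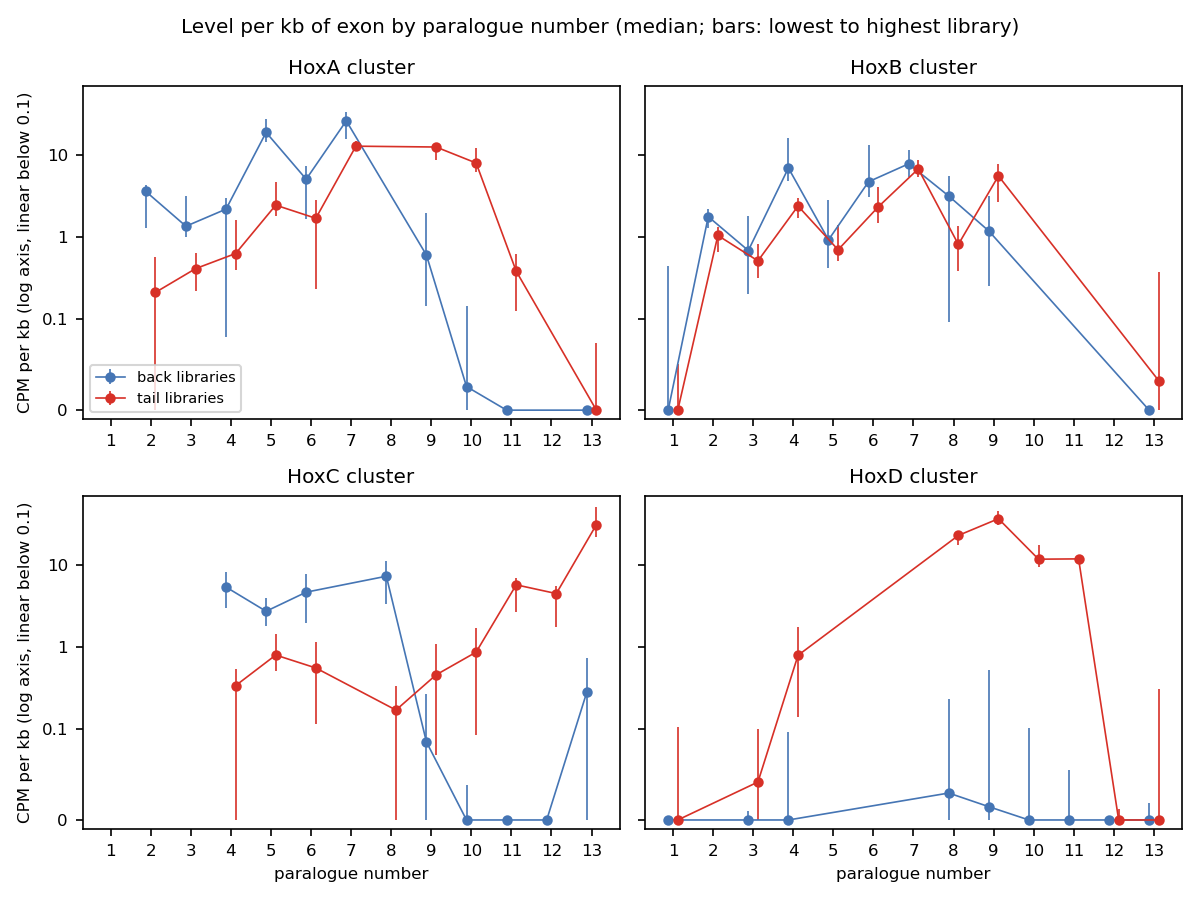
Level per kb of merged exon (CPM per kb, log axis above 0.1 and linear below) against paralogue number, in 1 panel per cluster, with points at the median and bars from the lowest to the highest of the 16 back (blue) or 12 tail (red) libraries. The curves cross between paralogues 7 and 9 in HoxA and between 8 and 9 in HoxB and HoxC, whereas the HoxD curve of back stays near 0 throughout.

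Posterior HoxD genes included Hoxd9, the Hox gene with the highest median level per kb in tail. Its libraries ranged from 30.8 to 46.3 CPM per kb, overlapping Hoxc13 (22.3 to 51.3). Hoxd9, a gene of the lower trunk and limbs, was at 98.9 and 81.5 CPM in tail Slc1a3 total, 75.9 and 73.1 in Aspm total, 82.4 and 69.9 in Dlx1 total, 96.0 and 85.3 in Slc1a3+, 74.9 and 68.7 in Aspm+ and 84.6 and 65.8 in Dlx1+ libraries. In back it had 49 counts in all, at most 1.12 CPM (Slc1a3+ replicate 2). No back library came near the tail values. Its log2 changes were 9.37 ± 0.513 (adjusted p = 1.56e-12), 7.64 ± 0.628 (3.23e-09) and 9.47 ± 0.725 (1.47e-09). Hoxd11, which with Hoxa11 shapes the forearm and kidney, was at 43.9 to 55.6 CPM in tail (median 50.3) and had 11 counts in back. Its tail values varied little among lines and gates. With 1 back count in total IFE the ratio was 6245 (exact 95% interval 1120 to 246741), and in Aspm+ cells, with no back count, it was at least 372-fold higher. In Slc1a3+ cells its log2 change was 8.94 ± 0.429 (adjusted p = 5.14e-12). Hoxd10, which patterns hindlimb motor neurons, was at 17.3 to 32.1 CPM in tail (median 21.4) and had 9 counts in back. Its ratio in total IFE was 991 (exact 95% interval 339 to 4810), and in Aspm+ cells it was at least 162-fold higher.

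The HoxD level ended abruptly after Hoxd11. Hoxd12, the next gene in the cluster, had 1 count over all 12 tail libraries and none in back. Hoxd13, which forms the digits, had 25 counts in tail and 1 in back, and its highest values were 0.255 and 0.766 CPM in tail Aspm total. It had no count in 9 of 12 tail libraries. Both stayed under the filter on low counts.

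Posterior HoxA genes were led in tail by Hoxa9. Hoxa9, a regulator of blood stem cells, was at 48.7 to 78.8 CPM in tail (median 70.1) and 0.797 to 11.0 CPM in back (median 3.38; highest 5.84 without back Slc1a3 total replicate 4). Hoxa9 and Hoxb9 were the posterior genes detected in every back library. The log2 changes of Hoxa9 were 4.06 ± 0.338 (adjusted p = 1.40e-09), 4.28 ± 0.485 (3.30e-07) and 4.79 ± 0.490 (1.09e-07). Hoxa10, needed in the uterus and for lumbar vertebrae, was at 20.7 to 40.3 CPM in tail (median 26.3) and 0 to 0.466 CPM in back. It was higher by 8.48 ± 0.512 in total IFE and 7.03 ± 0.646 in Slc1a3+ cells, and its ratio in Aspm+ cells was 665 (exact 95% interval 227 to 3232). Hoxa11 was at only 0.287 to 1.42 CPM in tail and had no count in back, which makes it at least 4.95-fold, 3.99-fold and 7.34-fold higher in total IFE, Slc1a3+ and Aspm+ cells. Hoxa11 shares 35% of its exon bases with its antisense gene. Hoxa13, a gene of hands, feet and the urogenital tract, had 7 counts in 2 tail Dlx1 libraries and none elsewhere.

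Hoxb9 was the single posterior HoxB gene with a clear level. It was at 20.3 and 20.2 CPM in tail Slc1a3 total, 17.9 and 15.7 in Slc1a3+, 16.7 and 14.2 in Aspm total, 12.2 and 14.6 in Aspm+, 11.2 and 8.68 in Dlx1 total and 9.36 and 6.94 in Dlx1+ libraries. In back it ranged from 0.649 to 8.2 CPM (median 3.07), so the lowest tail library lay under the highest back library. It was higher in tail by 2.01 ± 0.384 in total IFE (adjusted p = 1.53e-04), 4.05 ± 0.60 in Slc1a3+ cells (1.08e-05) and 1.79 ± 0.543 in Aspm+ cells (0.0162). The call in Aspm+ cells was lost without back Aspm+ replicate 2 and without tail Aspm+ replicate 2. Hoxb13, a gene of the tail end of the body and the prostate, had 43 counts in tail, at most 0.826 CPM, and none in back.

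Posterior HoxC genes were led by Hoxc13. Hoxc13 is required for hair and nail formation and acts on hair keratin genes and Foxn1. It was at 72.4 and 76.7 CPM in tail Slc1a3 total, 76.3 and 126 in Aspm total, 54.9 and 61.3 in Dlx1 total, 90.4 and 113 in Slc1a3+, 69.0 and 104 in Aspm+ and 67.5 and 87.9 in Dlx1+ libraries. In back it was at 0 to 1.79 CPM (median 0.688; highest 1.19 without back Slc1a3 total replicate 4), and it was detected in 15 of 16 libraries. The log2 changes of Hoxc13 were 6.99 ± 0.368 (adjusted p = 4.94e-13), 7.47 ± 0.537 (2.72e-10) and 6.74 ± 0.502 (6.91e-10). Hoxc11, a hindlimb-level gene, was at 5.34 to 14 CPM in tail and had no count in back, at least 65.6-fold, 34.6-fold and 100-fold higher. Hoxc12 was at 1.80 to 5.66 CPM in tail with no count in back, at least 24.6-fold, 19.8-fold and 38.2-fold higher. Hoxc10, which acts in lumbar motor neurons, was at 0.178 to 3.31 CPM in tail and had 1 count in back, in K14 total. In the compared groups, where back had none, it was at least 10.6-fold, 1.58-fold and 11.4-fold higher. Hoxc9, a thoracic motor neuron gene, was at 0.175 to 2.67 CPM in tail and 0 to 0.641 CPM in back, and passed in total IFE only (2.62 ± 0.715, adjusted p = 0.00433). Hoxc9 and Hoxc10 were the lowest posterior HoxC genes of tail per kb, lying in the cluster between Hoxc8 and Hoxc11.

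Levels of other cell types' markers also differed by site, and their part in the Hox differences was not tested. In total IFE 22.5% of all genes were higher in tail and 23.7% lower. Of 10 fibroblast markers 7 were tested and 3 were higher in tail in total IFE. Their sum was 24.6 to 138 CPM in back and 42.6 to 176 CPM in tail, most of it Thy1 (20.8 to 133 and 14.9 to 153 CPM). Col1a1 was at 0 to 4.26 and 1.65 to 5.94 CPM, and Dcn, a matrix gene of dermal fibroblasts, was at 0 to 3.77 and 13.2 to 32.8 CPM. Twist2 had no count in back. All 8 hair follicle markers were higher in tail in total IFE, with sums of 42.0 to 114 CPM in back and 119 to 514 CPM in tail. Krt79 alone was at 32.4 to 67.0 and 71.2 to 409 CPM. Of the 7 melanocyte markers 6 were higher in total IFE, with sums of 3.55 to 18.2 and 8.27 to 29.7 CPM. Of 7 immune markers 6 were tested and 3 were lower, and they summed to 14.2 to 100 CPM in back and 3.10 to 20.4 in tail. Cd74 alone was at 10.2 to 94.6 and 1.48 to 17.4 CPM. Within tail, hair follicle markers summed to 119 to 146 CPM in Dlx1+ cells and 307 to 514 CPM in their total.

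**Figure D4:**
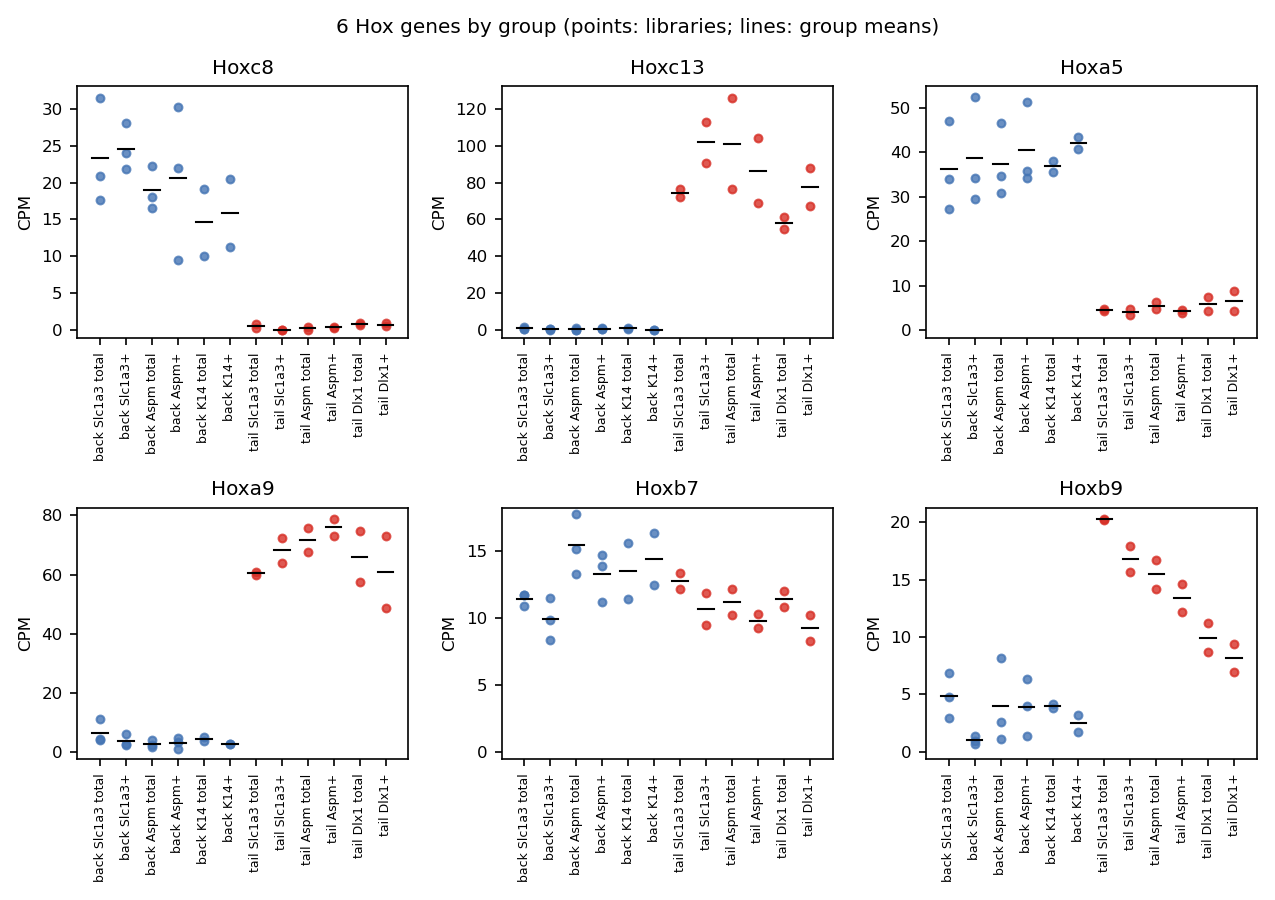
CPM of 6 Hox genes in each of the 12 groups (points are libraries, lines are group means, back blue and tail red, axes from 0). Hoxc8 and Hoxa5 are high in every back group, Hoxc13 and Hoxa9 in every tail group, Hoxb7 at both sites, and Hoxb9 has its lowest back mean, 0.987 CPM, in Slc1a3+ cells.

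Within a site the labelled cells were compared with total IFE of their line. By edgeR's quasi-likelihood test without pairing of libraries, 0 of 31 members passed in each of the 6 comparisons. Of all genes 0.109% passed in back Slc1a3, 0% in back Aspm and 0.00572% in back K14. In tail it was 0.514% in Slc1a3, 0.00572% in Aspm and 0% in Dlx1. At an unadjusted p under 0.05 there were 3, 0, 2, 4, 2 and 1 members in the same order. The share of all genes at that unadjusted threshold is not given here. These numbers, and those for lines and interactions below, are therefore not read as differences. DESeq2 gave 1 member in back Slc1a3 and 1 in tail Slc1a3 and 0 in the others, and limma-voom gave 0 in all 6. The members of these 2 calls were Hoxb9 and Hoxc8, which also passed by edgeR with labelled and total libraries paired. The share of all genes passing by DESeq2 or with pairing is not given here, also for the lines and interactions below. The values of Hoxb9 and Hoxc8 follow.

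In back Slc1a3+ cells Hoxb9 was at 0.913, 1.40 and 0.649 CPM, and in the total of the line at 2.95, 4.79 and 6.89 CPM, so the groups did not overlap. The 6.89 CPM came from back Slc1a3 total replicate 4, the library that stood apart. The log2 change was -2.22 ± 0.564 with an adjusted p of 0.315 (edgeR). With each labelled library paired with the total of its number (replicate block) it was -2.17, with an adjusted p of 0.00732. Without back Slc1a3 total replicate 4 the change was -1.91 unpaired (adjusted p = 0.767) and -1.73 with the replicate block (adjusted p = 0.0182). In tail Slc1a3+ cells Hoxc8 had no count in either library, and its total had 0.895 and 0.354 CPM (22 counts). The edgeR adjusted p was 0.0907 unpaired and 0.0290 with the replicate block. The fitted changes of -6.69 and -6.80 depend on the prior count. Both genes thus passed with the replicate block, by DESeq2 and without the filter on low counts, and not by limma-voom or the unpaired edgeR test. The share of all genes passing under those settings is not given here, so these calls have no background beside them. The difference between sites in the Slc1a3 labelled-over-total change was not past the threshold for any member (0 of 31, 0.0915% of all genes, 3 members at an unadjusted p under 0.05, 0 by DESeq2 and limma-voom). For the Aspm line the same held, with 0 of 31 (0% of all genes), 2 members at an unadjusted p under 0.05 and 0 by DESeq2 and limma-voom.

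Tail Slc1a3+ cells were also low in Hoxc9 and Hoxc10, beside Hoxc8. Hoxc9 was at 0.175 and 0.297 CPM there and at 0.808 to 2.67 CPM in the other 10 tail libraries. Hoxc10 was at 0.407 and 0.178 CPM and at 0.871 to 3.31 CPM in the others. Hoxc11 was at 7.45 and 5.34 CPM and overlapped the others, which were at 7.25 to 14 CPM. None of the 3 passed against total IFE of the line by edgeR. The log2 changes were -2.56 ± 1.19 for Hoxc9 (adjusted p = 0.810), -2.84 ± 1.0 for Hoxc10 (0.532) and -0.77 ± 0.440 for Hoxc11. Hoxc4, Hoxc5, Hoxc6, Hoxc12 and Hoxc13 did not follow this order. Hoxc6 was at 1.34 and 2.08 CPM in Slc1a3+ cells beside 0.275 and 1.42 CPM in the total. Hoxc13 was at 90.4 and 113 CPM in Slc1a3+ cells beside 72.4 and 76.7 CPM in the total. The pattern was picked out after the values were seen and has no test of its own.

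Lines were compared within site and gate. Among labelled cells of tail, Hoxc8 was lower in Slc1a3+ cells (no count) than in Dlx1+ cells (0.926 and 0.578 CPM, 37 counts), with an edgeR adjusted p of 0.0150, and it was the 1 member of 31 to pass, where 5.47% of all genes passed (3.16% lower). The call was lost without either tail Slc1a3+ library, without tail Dlx1+ replicate 2, and by limma-voom. Hoxc8 was the only member called between tail lines by this test, and 1 of 31 is near the 3.16% of all genes lower. The call is therefore not read as a Hox difference. Hoxc8 was detected in 5 of the 6 tail groups, at means of 0.281 to 0.812 CPM. Its level in all tail libraries was far below that of back, where group means were 14.6 to 24.6 CPM.

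No member passed in the other line comparisons by the unpaired edgeR test. Each percentage below is the share of all genes at an adjusted p under 0.05, whereas the members are counted at an unadjusted p. For labelled cells these were tail Slc1a3 against Aspm (0.492% of all genes, 4 members at an unadjusted p under 0.05), tail Aspm against Dlx1 (0.0915%, 2 members), back Slc1a3 against Aspm (0.160%, 4 members), back Slc1a3 against K14 (2.80%, 4 members) and back Aspm against K14 (0.200%, 2 members). For total IFE they were back Slc1a3 against Aspm (0.0114%, 6 members), back Slc1a3 against K14 (7.76%, 4 members), back Aspm against K14 (0.0686%, 0 members), tail Slc1a3 against Dlx1 (1.92%, 1 member), tail Slc1a3 against Aspm (0.00572%, 0 members) and tail Aspm against Dlx1 (0.0343%, 2 members). DESeq2 gave 1 member in back Slc1a3+ against Aspm+ cells, 1 in back Slc1a3+ against K14+ cells and 3 in back Slc1a3 against K14 total, and limma-voom gave 0 throughout. The nearest by edgeR was Hoxd8 in back Slc1a3+ cells, at 0.628, 0.606 and 0.162 CPM against no count in either K14+ library (adjusted p = 0.0606, and 0.0417 without back Slc1a3 total replicate 4). These traces of Hoxd8 in back Slc1a3+ cells were 26 counts in all, against 1924 in tail Slc1a3+ cells.

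The site difference was also compared between Slc1a3+ and Aspm+ cells. No member passed that interaction by edgeR (0.137% of all genes passed, 5 members had an unadjusted p under 0.05), DESeq2 gave 1, Hoxc8, and limma-voom gave 0. The lowest adjusted p values by edgeR were 0.155 for Hoxc8, 0.183 for Hoxd11 and 0.211 for Hoxb9.

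Part of the genes known to work with the Hox family differed by site. Pbx, Meis and Pknox proteins are homeobox cofactors that bind DNA together with Hox proteins. Of 9 such genes 0 were higher in tail, and 5, 4 and 3 were lower in total IFE, Slc1a3+ and Aspm+ cells, with median log2 changes of -0.70, -0.67 and -0.80. Of all genes 23.7%, 21.6% and 14.5% were lower and 22.5%, 19.0% and 12.7% higher in the same order, with medians of -0.03, -0.09 and -0.05. Meis2 was at 6.89 to 20.7 CPM in back and 2.00 to 9.76 CPM in tail (-1.52 ± 0.281 in total IFE, adjusted p = 1.13e-04), and Pbx4 was at 1.75 to 10.8 and 1.10 to 3.64 CPM (-1.29 ± 0.294, 9.14e-04). The summed level of the cofactors was similar, 170 to 262 CPM in back and 173 to 236 CPM in tail. Cdx1, Cdx2 and Cdx4, which switch on posterior Hox genes in the embryo, were all too low to be tested, with sums of at most 0.145 CPM in back and 0.147 CPM in tail.

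Polycomb proteins keep Hox clusters silent and trithorax proteins keep them active. Of 20 Polycomb genes 2, 0 and 1 were higher in tail and 10, 10 and 4 were lower in total IFE, Slc1a3+ and Aspm+ cells. Ezh2, the methyltransferase of the repressive complex, was lower by -0.81 ± 0.130 in total IFE (71.5 ± 6.33 CPM in back and 41.1 ± 6.11 CPM in tail, SD, adjusted p = 2.18e-05), and Phc3 by -1.40 ± 0.196 (3.51e-06). Of 8 trithorax and demethylase genes 1, 1 and 0 were higher and 2, 5 and 2 lower. Kmt2a, the methyltransferase that maintains Hox transcription, was lower by -1.54 ± 0.219 in total IFE (4.16e-06) and Kdm6a, which removes the Polycomb mark, by -1.06 ± 0.122 (1.92e-07). Of all genes 22.5%, 19.0% and 12.7% were higher and 23.7%, 21.6% and 14.5% lower. The 2 of 8 trithorax and demethylase genes lower in total IFE is thus near the background share.

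Noncoding genes of HoxA, HoxC and HoxD differed by site. Of 13 noncoding and flanking genes 9 were tested, and 4, 4 and 3 were higher and 2, 3 and 2 lower in tail, beside 22.5%, 19.0% and 12.7% of all genes higher and 23.7%, 21.6% and 14.5% lower. The number lower in total IFE is thus near the background share. Hoxd3os1, antisense in HoxD, was at 0 to 0.206 CPM in back and 22.7 to 34.8 CPM in tail (8.58 ± 0.359 in total IFE, adjusted p = 9.87e-14). Hotair, a noncoding RNA of the posterior HoxC cluster, had no count in back and was at 0.983 to 3.96 CPM in tail, and Haglr of HoxD had no count in back and was at 0.287 to 1.3 CPM in tail. On the anterior side Hotairm1 of HoxA was lower, at 4.97 to 11.7 CPM in back and 1.70 to 3.79 CPM in tail (-1.37 ± 0.251, adjusted p = 9.82e-05). Hottip, next to Hoxa13, had no count in any library. Without strand the antisense genes cannot be separated from the Hox exons they overlap.

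Among other factors that mark body position, Emx2, Msx1 and Msx2 were higher in tail in each comparison and Lmx1b lower. Of 16 such genes 8 were tested, and 3 were higher in tail in each comparison, against 22.5%, 19.0% and 12.7% of all genes. The lower counts were 2, 2 and 1, near the share of all genes (23.7%, 21.6% and 14.5%). Emx2, a homeobox gene of brain and urogenital tract, was at 0 to 1.05 CPM in back and 8.53 to 15.7 CPM in tail (7.0 ± 0.539 in total IFE, adjusted p = 4.34e-10). Msx1 was at 0 to 0.191 and 1.38 to 4.04 CPM, and Lmx1b, which marks the dorsal limb, was at 0.255 to 4.46 CPM in back and 0 to 0.187 CPM in tail. Of the hard keratins and Foxn1, the targets through which Hoxc13 is known in hair, 10 were tested. Of these 9, 7 and 5 were higher in tail, with 0 lower, against 22.5%, 19.0% and 12.7% of all genes higher. The list's sum was 9.13 to 108 CPM in back and 1809 to 6255 CPM in tail. It was led by Krt84 (0 to 54.0 and 997 to 3113 CPM) and Krt36 (0 to 34.7 and 748 to 3082 CPM). Krt31, Krt33a, Krt33b, Krt35, Krt81, Krt83 and Krt86 each reached at most 15.7 CPM in tail.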

How the data were processed

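The deposited files hold 1 raw count per gene and library. The submitters' processing notes name Trim Galore 0.6.0 with cutadapt for trimming, FastQC, STAR 2.7.0e as aligner, the build GRCm38 (mm10) and DESeq2 1.26.0. The counting program, annotation and strand setting are not given in the sources used here. Per the labels' protocols, libraries came from poly(A) RNA of low input with a non-directional kit.

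All 55536 identifiers matched GENCODE vM21, which gave symbols and merged exon lengths. A Hox gene beyond the 38 is not reported here. Members and lists were chosen with earlier results of these data known. TMM normalization was applied to the counts, which were filtered with filterByExpr (minimum count 10, 17493 genes) and fitted in edgeR 4.0.16 (R 4.3.3) as 1 model of 12 groups with 16 residual degrees of freedom. Genes with an adjusted p under 0.05 passed. All 28 libraries entered the model. Full values are given for members that passed between sites with a group mean of at least 1 CPM. A gene of another list is named if it passed in all 3 site comparisons (up to 4 per list), or as a defining marker. Genes of these lists named for being at or near 0 were chosen after their values were seen. Folds against a group without counts use 3 counts per library, and intervals cover counting error only. Overlap counts, levels and shares per kb without back Slc1a3 total replicate 4, and the replicate block without it, were added after seeing the data. Alternatives were DESeq2 size factors, library totals, no filter, limma-voom (limma 3.58.1), DESeq2 1.42.0, the replicate block, other sample sets and each library left out. The model was tested on simulated counts.

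Labelled and total libraries of the same line, site and number were taken as pairs. Over 10376 genes their deviations from group means correlated at 0.18 to 0.689 in 14 of 14 pairs, and the labels do not state the pairing. In back K14 and in all tail groups both pairs give the same value by construction, so the pairs are not independent.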

Additional observations from a re-analysis of the deposited data

How the results depend on the processing

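Between sites, the numbers of Hox genes higher or lower stayed within 1.5 times under the 8 alternatives other than leaving out 1 library. Leaving out 1 library gave 14 to 15 higher and 13 to 14 lower in total IFE, 11 to 13 and 10 to 14 in Slc1a3+ cells, and 12 to 13 and 5 to 14 in Aspm+ cells. Single changes that passed kept their direction in every alternative run, and lost their call in 11 of 504 values in total IFE (all Hoxb5), 13 of 361 in Slc1a3+ cells and 41 of 349 in Aspm+ cells, where Hoxb2 lost it most often. With only the compared groups, Hoxa11, Hoxc10 and Hoxd4 gave no value in Slc1a3+ cells. Sites share only replicate numbers (r = -0.0589 to 0.379 over 16 pairs of libraries, 6 above 0.1), as do lines within a site (r = -0.129 to 0.343 over 52 pairs, 25 above 0.1). Between tail lines each value is repeated by construction.

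Within sites, counts that moved from 0 were as follows. Without the filter on low counts they became 1 (back Slc1a3 labelled against total), 2 (back K14), 1 (tail Slc1a3), 3 (back Slc1a3+ against Aspm+), 2 (back Slc1a3+ against K14+), 1 (back Aspm+ against K14+), 1 (tail Slc1a3+ against Aspm+), 2 (back Slc1a3 against Aspm total), 1 (Slc1a3 interaction of gate and site) and 3 (Slc1a3+ against Aspm+ site difference). By DESeq2 they became 1, 1, 1 and 1 in back Slc1a3 and tail Slc1a3 against total, back Slc1a3+ against Aspm+ and against K14+, 3 in back Slc1a3 against K14 total and 1 in the Slc1a3+ against Aspm+ site difference. With the replicate block they became 1 in back Slc1a3 (also 1 with back Slc1a3 total replicate 4 left out) and 1 in tail Slc1a3 against total, 1 in back Slc1a3+ against K14+ (Hoxd8) and 2 in back Slc1a3 against K14 total (Hoxb6 and Hoxd11), and no other call changed under that block within sites. With only the compared groups they became 1 in back Slc1a3+ against K14+ and 1 in tail Slc1a3 against Dlx1 total. For tail Slc1a3+ against Dlx1+ the 1 call became 0 by limma-voom and 2 with only the compared groups, and 0 to 1 with 1 library left out. Leaving out 1 library gave 0 to 1 for back Slc1a3+ against K14+ and for tail Slc1a3+ against Aspm+ (1, Hoxc4, without tail Aspm+ replicate 1). The share of all genes passing under each alternative is not given here, so these counts are not read as differences. The cause of these moves was not tested.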
